A study of Mus musculus with 20 samples.

Results

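The genes described here write, copy, erase or guard DNA methylation. They are 10 of the 27161 genes tested, chosen by name: the de novo methyltransferase genes Dnmt3a and Dnmt3b and their cofactor gene Dnmt3l, the maintenance genes Dnmt1 and Uhrf1, the dioxygenase genes Tet1, Tet2 and Tet3, and the imprint keepers Zfp57 and Trim28. All 10 had probes, 19 in all, and each was represented by a probe well above background on all 20 arrays. RNA of 10 mouse lines was hybridized to 1-colour Agilent arrays, 2 for each line. Of the lines, 7 were induced pluripotent stem cells (iPSC) and 3 were embryonic stem cells (ESC). The labels grade the iPSC lines by quality. Poor were KH2_OSKM, Oct4-GFP OSKM#2 and Nanog-GFP OSKM#2, good were BC_2 OSKM and Nanog-GFP SNEL#3, and high were Oct4-GFP SNEL#1 and Nanog-GFP SNEL#2. OSKM stands for Oct4, Sox2, Klf4 and Myc, and SNEL for Sall4, Nanog, Esrrb and Lin28, the factors used for reprogramming. The controls were Oct4-GFP ESCs, KH2 ESCs and Nanog-GFP ESCs. Every line was kept untreated in 2i medium (inhibitors of MEK and GSK3) with no feeder cells. Grade and factors overlap in this design: all 3 poor lines were made with OSKM and both high lines with SNEL, and the good grade alone holds both, with 1 line of each. Each iPSC line is a single line, and how its grade was measured is not given in the sources used here.

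In mammals, Dnmt3a and Dnmt3b place new methyl groups on cytosines that precede a guanine (CpG), and Dnmt3l, which has no catalytic activity of its own, binds and stimulates them. Dnmt1, brought to replicating DNA by Uhrf1, copies the pattern onto the new strand, while the Tet enzymes oxidise methylcytosine and so start its removal. Zfp57 binds methylated imprint control regions and recruits Trim28, which assembles repressive chromatin there. Mouse pluripotent cells in 2i medium are known for low levels of de novo methyltransferases and of DNA methylation compared with cells in serum.

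Sequence is shown for the pair of genes that varied most, Dnmt3l and Dnmt3b, because it is where their transcription starts and where the arrays read them. The 250 bases before each annotated start were taken from RefSeq (GRCm38.p6, forward strand for both genes), and CpG dinucleotides are in capitals.
Dnmt3l window 1, chr10:78042037-78042286: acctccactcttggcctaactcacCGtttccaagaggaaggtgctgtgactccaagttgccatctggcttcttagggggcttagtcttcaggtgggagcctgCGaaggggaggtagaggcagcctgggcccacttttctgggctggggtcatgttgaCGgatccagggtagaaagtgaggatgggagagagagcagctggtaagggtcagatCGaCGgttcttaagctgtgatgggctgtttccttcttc
Dnmt3l window 2, chr10:78049592-78049841: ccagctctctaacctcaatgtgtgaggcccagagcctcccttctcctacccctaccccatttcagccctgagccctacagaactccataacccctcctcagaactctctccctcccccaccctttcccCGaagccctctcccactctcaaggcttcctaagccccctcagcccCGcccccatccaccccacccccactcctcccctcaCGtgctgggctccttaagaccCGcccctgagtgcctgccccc
Dnmt3l window 3, chr10:78055085-78055334: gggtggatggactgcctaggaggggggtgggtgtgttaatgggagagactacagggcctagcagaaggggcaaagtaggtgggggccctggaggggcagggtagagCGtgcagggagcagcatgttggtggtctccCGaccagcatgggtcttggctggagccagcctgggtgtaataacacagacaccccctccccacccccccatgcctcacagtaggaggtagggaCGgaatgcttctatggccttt
Dnmt3b window 1, chr2:153649199-153649448: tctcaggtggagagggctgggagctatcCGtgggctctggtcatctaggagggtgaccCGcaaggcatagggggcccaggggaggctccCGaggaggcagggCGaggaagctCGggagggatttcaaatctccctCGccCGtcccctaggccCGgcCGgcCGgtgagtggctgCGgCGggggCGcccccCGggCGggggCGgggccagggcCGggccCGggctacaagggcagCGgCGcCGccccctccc
The Dnmt3l windows held 5, 4 and 3 CpG, and the Dnmt3b window 21. Across 32851 windows of the same length the median was 6, 44.4% had fewer CpG than the first Dnmt3l window and 83.7% fewer than the Dnmt3b window. The windows of the other genes reached 51 CpG, in Tet2. GGTCTCTAA, a motif known for Prdm14, was searched on both strands and was found in 0 of the 19 windows of the 10 genes and in 0.24% of all windows. The array reads Dnmt3l with a 60-base probe at chr10:77526112-77526171 (mm9, plus strand), which begins atgaaagtctttcctagaaccagggcagat, and Dnmt3b with a probe at chr2:153513403-153513462 (mm9, plus strand), which begins gtgcaaagatgacagatgcccagagtttac. Whether these probes lie in coding sequence or in a UTR was not looked up here. The Dnmt3b probe is the brightest of 3, whereas Dnmt3l has only 1 probe, so no second probe could check its levels.

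Levels are given as log2 signal relative to the 75th percentile of the same array, and a line is the mean of its 2 arrays. They rank lines for a gene and do not compare genes, because probes differ in brightness.

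Dnmt3l was higher in all 3 poor and both good lines than in any ESC line, and both high lines lay within or below the range of the ESC lines. It was 6.37 in Nanog-GFP OSKM#2 (poor), 5.23 in Oct4-GFP OSKM#2 (poor) and 4.72 in KH2_OSKM (poor). The good lines stood at 5.17 for BC_2 OSKM and 4.94 for Nanog-GFP SNEL#3. The high lines stood at 3.43 for Nanog-GFP SNEL#2 and 2.99 for Oct4-GFP SNEL#1. ESC lines stood at 4.19 for Oct4-GFP ESCs, 4.01 for KH2 ESCs and 3.14 for Nanog-GFP ESCs. From the lowest to the highest line the range was 3.37, or 10.4-fold, while the 2 arrays of a line differed by 0.10 at the median and by 0.26 at most. Along this order, the arrays of neighbouring lines overlapped only between Oct4-GFP OSKM#2 and BC_2 OSKM and between Nanog-GFP ESCs and Oct4-GFP SNEL#1.

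**Figure D1:**
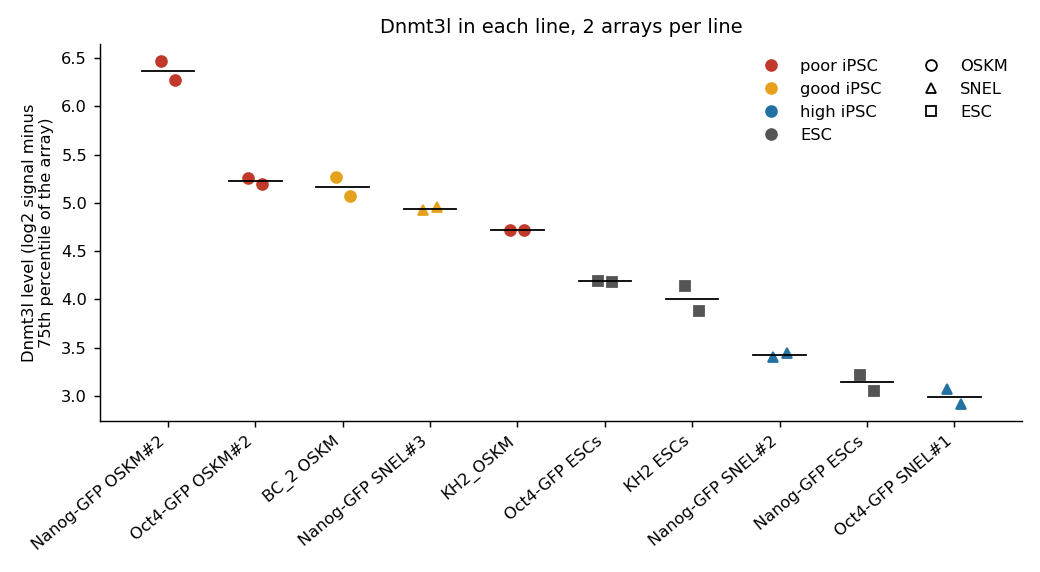
Dnmt3l level of each array (points, log2 signal minus the 75th percentile of the array) in the 10 lines, ordered by their mean (bars); colour gives the grade and shape the factors. The 5 poor and good lines lie between 4.72 and 6.37, above the highest ESC line at 4.19, and the high lines lie at 3.43 and 2.99.

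The poor lines averaged 5.44 ± 0.84 (SD, n = 3 lines), the good lines 5.06 ± 0.16 (n = 2), the high lines 3.21 ± 0.31 (n = 2) and the ESC lines 3.78 ± 0.56 (n = 3). Poor minus ESC lines gave 1.66 ± 0.44 (SE), or 3.16-fold, with limma's unadjusted p = 0.00558 and adjusted p = 0.259 over all genes. The groups did not overlap, which held for 17.5% of all genes, 6.8% with the poor lines above, and the exact permutation p of 0.1 was the smallest that 3 lines against 3 allow. Good minus ESC lines gave 1.28 ± 0.49 (adjusted p = 0.749, limma), again with no overlap, as for 20.9% of all genes, 6.63% with the good lines above. High minus ESC lines gave -0.57 ± 0.49 (adjusted p = 0.976, limma), with overlap. Good and high lines together were 1.30 ± 0.41 below the poor lines, a difference of -1.30 (limma p = 0.0135, adjusted p = 0.925; exact permutation p = 0.229). None of these passed the threshold of 0.05 after adjustment.

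By factors, the OSKM lines averaged 5.37 ± 0.70 (n = 4) and the SNEL lines 3.79 ± 1.02 (n = 3). SNEL minus OSKM was -1.58 ± 0.53, with limma p = 0.0155 and adjusted p = 0.513, and an exact two-sided permutation p of 0.0571. Overlap came from the good SNEL line: Nanog-GFP SNEL#3, at 4.94, lay above KH2_OSKM at 4.72, whereas both high SNEL lines lay below every OSKM line. With grade and factors in one fit over the 7 iPSC lines, an alternative chosen after seeing the data, SNEL minus OSKM was -0.22 ± 0.82 (adjusted p = 0.946, limma), a value that rests on the 2 good lines. Good and high minus poor was -1.14 ± 0.76 in that fit (adjusted p = 0.943, limma). SNEL lines and ESC lines differed by 0.01 ± 0.57. All iPSC lines minus ESC lines gave 0.91 ± 0.37 (adjusted p = 0.497, limma; exact permutation p = 0.233). These comparisons share the ESC lines or the iPSC lines and are not independent of each other.

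Lines of the same origin give a closer view. Against the ESC line of its origin, the OSKM line was higher in Dnmt3l by 3.23 (9.38-fold) for Nanog-GFP, 1.04 for Oct4-GFP and 0.71 for KH2. For SNEL lines the differences were 1.81 for Nanog-GFP SNEL#3, 0.29 for Nanog-GFP SNEL#2 and -1.19 for Oct4-GFP SNEL#1. The 3 SNEL lines lay below the OSKM line of their origin, with differences of -2.94 for Nanog-GFP SNEL#2, -1.42 for Nanog-GFP SNEL#3 and -2.24 for Oct4-GFP SNEL#1. The good and the high SNEL line of Nanog-GFP origin share factors and origin, and the high line was lower, by a difference of -1.52. Apart from the SNEL lines of Nanog-GFP origin, each origin has at most 1 line of a kind. BC_2 OSKM has no ESC line of its origin and is left out. All of these are differences between lines, with no test.

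**Figure D2:**
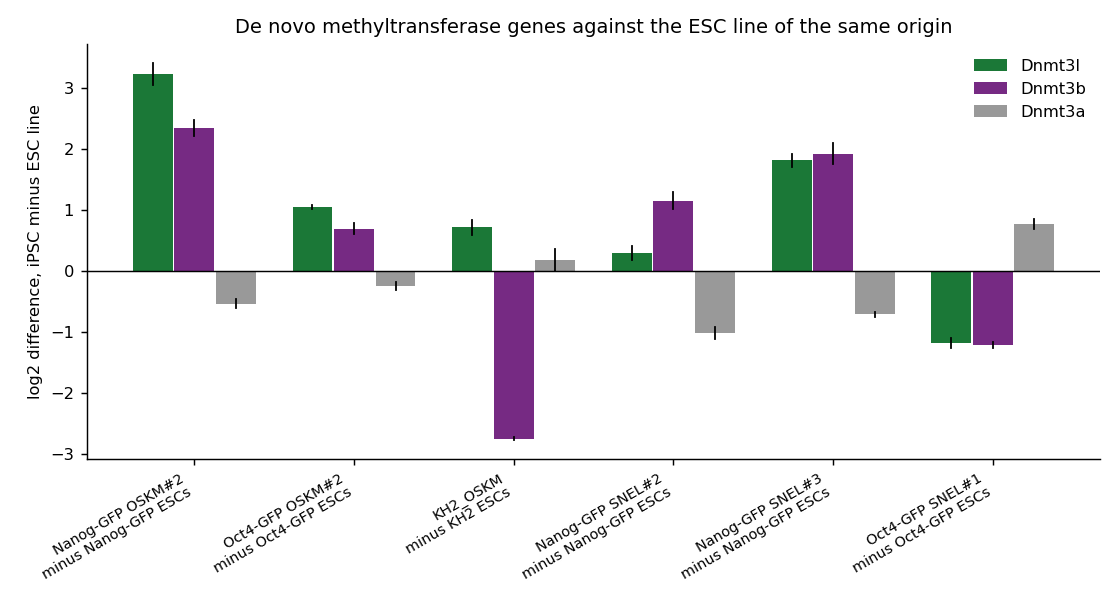
Log2 difference of iPSC lines from the ESC line of the same origin for Dnmt3l, Dnmt3b and Dnmt3a (bars). BC_2 OSKM, which has no ESC line of its origin, is not shown. Black lines span the lowest and highest difference between single arrays. Dnmt3l is above 0 in the 3 OSKM lines shown (3.23, 1.04 and 0.71), whereas Dnmt3b is at -2.75 in KH2_OSKM.

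Other measures differed between the same groups. Summed over 9 fibroblast markers, the log2 level was 2.86 to 3.72 in ESC lines, 1.02 to 1.92 in poor, 0.53 to 1.54 in good and 1.09 to 3.44 in high lines. Every ESC line lay above every poor line for 8 of the 9 markers, and for Thy1 the groups overlapped, at -0.23 to 0.74 in ESC and 0.70 to 1.64 in poor lines. The number of these markers above background was 8 to 9 in ESC lines and 2 to 8 in iPSC lines. The share of probes well above background, as a mean of 2 arrays, was 50.2% to 58.8% in SNEL lines and 61.2% to 67.8% in the other lines. Single arrays overlapped. Oct4-GFP SNEL#1 had 49.5% on slide 1 and 68% on slide 3, and KH2_OSKM had 77.2% on slide 1 and 58.3% on slide 2. Two-cell-like markers, of which 5 of 6 passed the filter, gave a summed level of 0.02 to 4.09 in poor, -2.90 to 1.77 in good, -1.45 to 4.79 in high and -2.34 to 1.19 in ESC lines. The part of these measures in the Dnmt3l differences was not tested. In bulk RNA, fewer cells of a type and less RNA per cell cannot be told apart. The 8 pluripotency markers were above background in every line, with a summed level of 9.05 to 9.47, and markers of primed epiblast gave 2.59 to 4.36. The slides hold different lines: slide 1 has 1 array of each of the 7 iPSC lines and of KH2 ESCs, slide 2 has 6 arrays of iPSC lines and 1 each of the other two ESC lines, and slide 3 has 1 array of Oct4-GFP SNEL#1 and 3 of ESC lines. Poor minus ESC for Dnmt3l was 1.34 within slide 1 (3 arrays against 1) and 1.69 within slide 2 (3 against 2). SNEL minus OSKM was -1.63 within slide 1 (3 against 4) and -1.11 within slide 2 (2 against 4).

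Dnmt3b, read by 3 probes of which the other two correlated with the brightest at 1 (rounded) over the lines, had the widest range of the 10 genes, and its lines overlapped between the groups of every comparison. It was 5.86 in Nanog-GFP OSKM#2, 5.18 in Oct4-GFP OSKM#2 and 2.69 in KH2_OSKM, which are all poor. The good lines were as far apart, at 2.20 for BC_2 OSKM and 5.43 for Nanog-GFP SNEL#3. The high lines held 4.66 (Nanog-GFP SNEL#2) and 3.27 (Oct4-GFP SNEL#1). ESC lines held 5.44 (KH2 ESCs), 4.49 (Oct4-GFP ESCs) and 3.51 (Nanog-GFP ESCs). Each of the 4 groups held a line above and a line below the ESC mean of 4.48 ± 0.96 (SD, n = 3). The range of 3.66 is 12.6-fold, and 96.7% of all genes had a smaller SD over the 10 lines, against 94.4% for Dnmt3l. SNEL minus OSKM was 0.47 ± 0.96 and poor minus ESC 0.10 ± 1.07, both within the error.

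Dnmt3l and Dnmt3b parted in KH2_OSKM and BC_2 OSKM, which held the lowest Dnmt3b (2.69 and 2.20) with Dnmt3l of 4.72 and 5.17. Over the 10 lines their Pearson correlation was 0.32, and -0.09 without the lines with the highest and lowest Dnmt3l. Correlations here describe 10 lines that share arrays and scaling. Dnmt3a, the other de novo enzyme, was dim, at -1.24 in Oct4-GFP OSKM#2 to 0.14 in Nanog-GFP ESCs. SNEL minus OSKM for Dnmt3a was 0.00 ± 0.33.

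**Figure D3:**
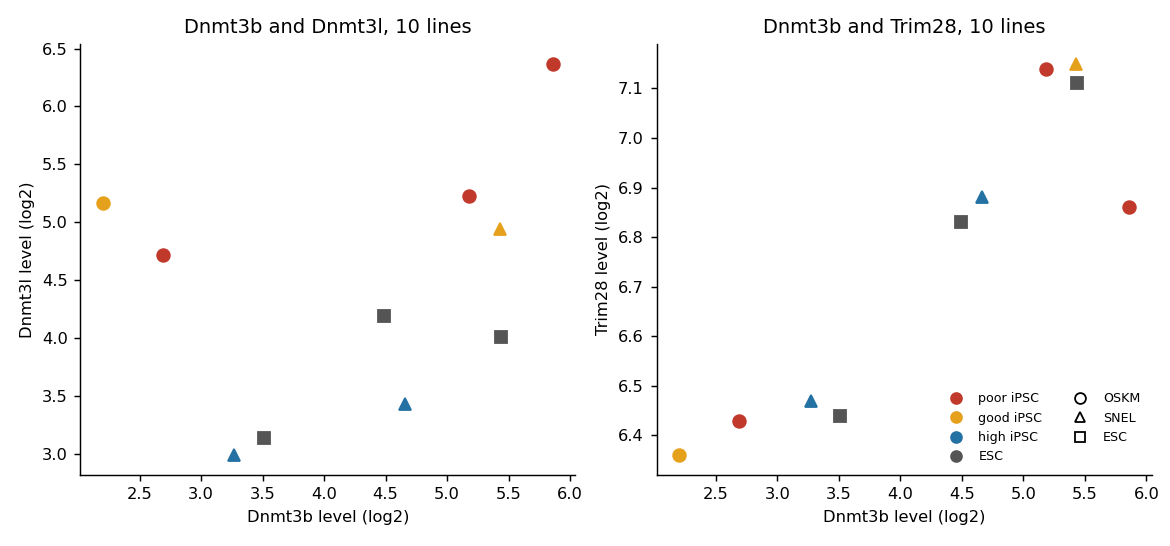
Dnmt3b level against Dnmt3l (left) and Trim28 (right), log2, 1 point per line, colour for grade and shape for factors. KH2_OSKM and BC_2 OSKM are at the left of the first panel, with Dnmt3b of 2.69 and 2.20 beside Dnmt3l of 4.72 and 5.17.

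The maintenance genes varied little between lines. Dnmt1 ran from 2.92 in Oct4-GFP SNEL#1 to 3.39 in Nanog-GFP SNEL#2, and Uhrf1 from 6.25 in Oct4-GFP SNEL#1 to 6.71 in Nanog-GFP SNEL#3. Only 7.18% and 9.19% of all genes had a smaller SD over the lines. Dnmt1 poor minus ESC was 0.02 ± 0.16 and Uhrf1 0.00 ± 0.15. Their correlation over 10 lines was 0.77 (0.79 without the 2 lines farthest from the median of Dnmt1). It was 0.67 after quantile normalization and 0.61 in the authors' table, where leaving out the 2 farthest lines gave 0.27 and 0.40, so under those scalings it rests on those lines.

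**Figure D4:**
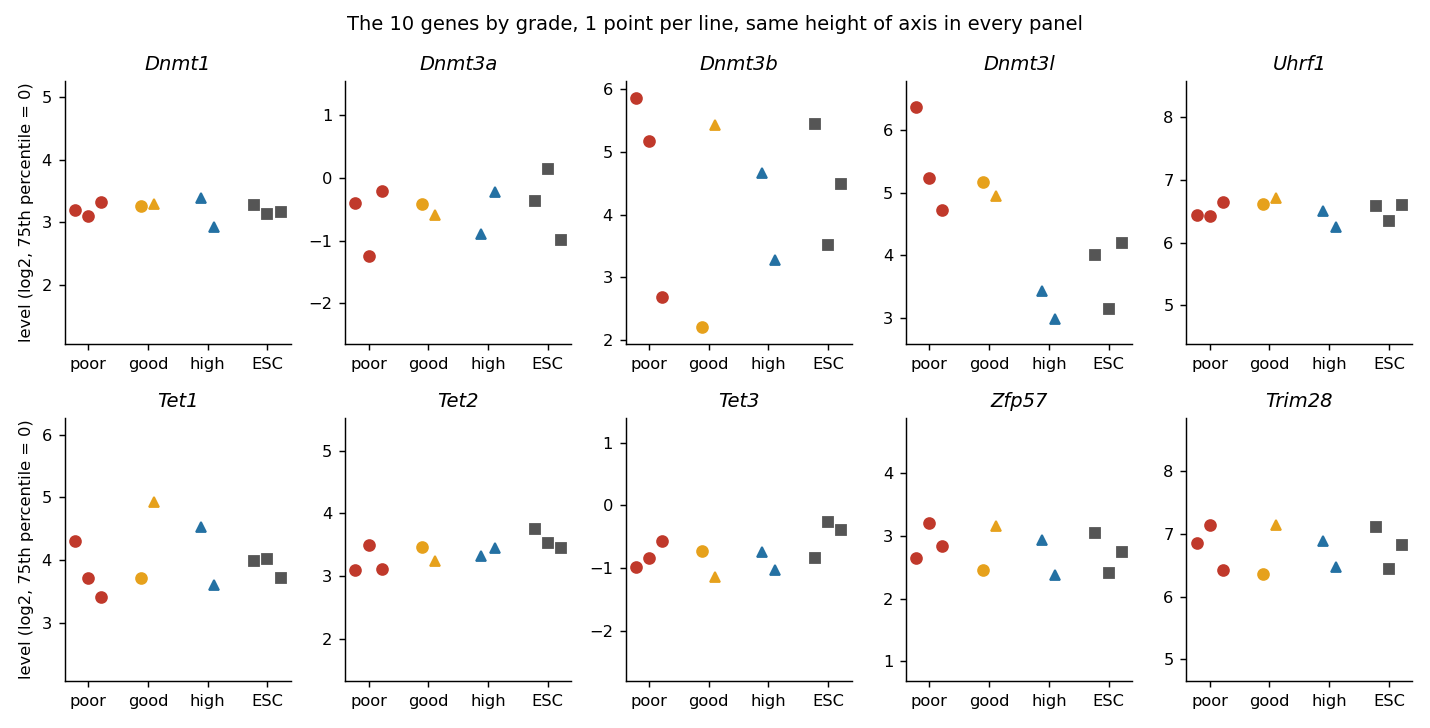
Level of the 10 genes (log2, 75th percentile of the array = 0) by grade, 1 point per line, with circles for OSKM, triangles for SNEL and squares for ESC lines; every panel spans the same number of log2 units. Dnmt3b and Dnmt3l spread over 3.66 and 3.37 units, Dnmt1 and Uhrf1 over 0.47 and 0.46.

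Among the erasers, Tet1, which is abundant in pluripotent cells, was highest in Nanog-GFP SNEL#3 at 4.93, Nanog-GFP SNEL#2 at 4.52 and Nanog-GFP OSKM#2 at 4.30, and lowest in KH2_OSKM at 3.41. SNEL minus OSKM was 0.56 ± 0.32 (adjusted p = 0.586, limma), and the 3 Tet1 probes gave 0.56, 0.45 and 0.53. Tet2 stood at 3.75 in KH2 ESCs, 3.52 in Nanog-GFP ESCs and 3.44 in Oct4-GFP ESCs, and at 3.10 to 3.49 in the 7 iPSC lines. The iPSC lines differed from ESC lines by -0.26 ± 0.14, with an exact permutation p of 0.0417, which is 0.292 after adjustment over the 7 comparisons, and limma's adjusted p = 0.679. Tet3 differed by -0.36 ± 0.18 (exact permutation p = 0.05, adjusted 0.35), but its arrays differed by 0.69 at the median and 1.30 at most within a line. Tet3 levels differed by slide: its 8 arrays on slide 1 ran from -1.68 to -0.86, the 8 on slide 2 from -0.77 to -0.16 and the 4 on slide 3 from -0.37 to -0.23. All 7 iPSC lines but only 1 of the 3 ESC lines have an array on slide 1. With slide as a block, iPSC minus ESC was -0.02 for Tet3, and within slide 1, slide 2 and slide 3 it was 0.08, -0.14 and -0.06. The other Tet3 probes, above background on 18 and 7 arrays, had correlations of -0.02 and -0.05 with it.

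Trim28 and Zfp57, the imprint keepers, varied about as much as a typical gene, with 42% and 40.8% of all genes having a smaller SD over the lines. Trim28 ran from 6.36 in BC_2 OSKM to 7.15 in Nanog-GFP SNEL#3 and Zfp57 from 2.37 in Oct4-GFP SNEL#1 to 3.20 in Oct4-GFP OSKM#2. Trim28 correlated with Dnmt3b at 0.91 (0.86 without BC_2 OSKM and KH2_OSKM) and with Zfp57 at 0.86 over the 10 lines. The correlation with Zfp57 was 0.81 without Oct4-GFP SNEL#1 and Oct4-GFP OSKM#2. In the authors' table it was 0.81, and 0.65 without Nanog-GFP ESCs and Oct4-GFP OSKM#2. Setdb1 and Ctcf, described below, also correlated with Dnmt3b at 0.91. SNEL minus OSKM was 0.14 ± 0.26 for Trim28 and 0.04 ± 0.25 for Zfp57.

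Over all 7 comparisons, 0 of the 10 genes passed limma's adjusted threshold of 0.05. The background was 0% of genes in 6 comparisons and 0.00736% in SNEL against OSKM lines. At an unadjusted p under 0.05, 1 of the 10 passed in 6 comparisons and 0 in high against ESC lines, while of all genes 5.16% passed in good and high against poor lines, 9.4% in SNEL against OSKM, 9.35% in iPSC, 9.75% in poor, 6.25% in good, 5.89% in high and 8.04% in SNEL against ESC lines. Dnmt3l was that gene in 5 comparisons. Its exact permutation p was 0.229 for good and high against poor and 0.233 for iPSC against ESC lines. Tet3 was that gene in SNEL against ESC lines, at -0.47 ± 0.19. With slide as a block that Tet3 difference was -0.15, and within the 3 slides it was -0.11, -0.22 and -0.06. Lines of the groups did not overlap for Dnmt3l in poor against ESC lines (17.5% of all genes), for Dnmt3l and Uhrf1 in good against ESC lines (20.9%), and for Tet2 in high against ESC lines (21.3%) and SNEL against ESC lines (13.3%). In good and high against poor, SNEL against OSKM and iPSC against ESC lines this held for 0 of the 10 genes, beside 5.83%, 7.68% and 4.21% of all genes. The Uhrf1 separation rests on BC_2 OSKM at 6.61 and Oct4-GFP ESCs at 6.60, whose arrays overlapped. For Tet2 it rests on Oct4-GFP SNEL#1 and Oct4-GFP ESCs, both at 3.44 after rounding, whose arrays also overlapped. Their Tet2 difference was 0.14, 0.11 and 0.11 under quantile normalization, scaling over detected probes and the authors' table. Under those scalings the groups overlapped.

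**Figure D5:**
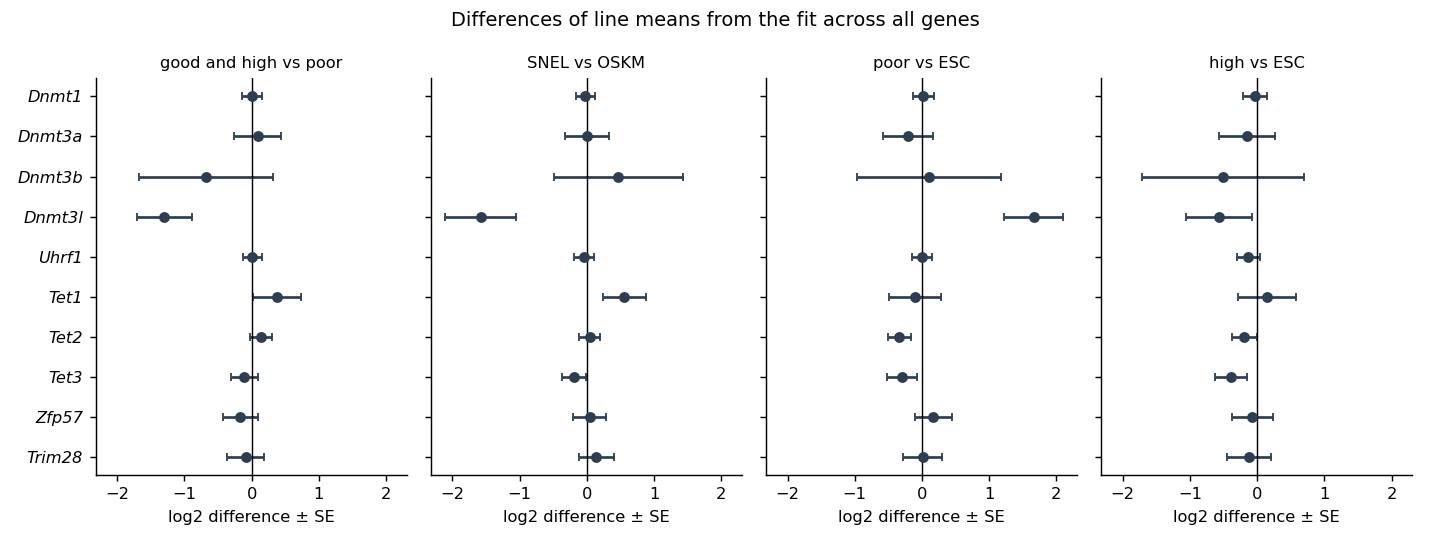
Difference of group means (points, log2) with its standard error (bars) for the 10 genes in 4 comparisons, from limma's fit across all genes. Dnmt3l lies at -1.30, -1.58, 1.66 and -0.57, and the bars of Dnmt3b cross 0 in all 4 comparisons.

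A list of 43 further genes of DNA methylation, of which 42 were tested, held 0 called genes in each comparison, as did the background apart from SNEL against OSKM lines. Their median difference was 0.14 in SNEL against OSKM lines, beside -0.02 over all genes, and -0.08 in poor against ESC lines, beside -0.03. Dppa3, which protects maternal methylation from Tet-driven loss, ranged widely, from -1.05 in Nanog-GFP OSKM#2 to 3.17 in Nanog-GFP ESCs, and correlated with Dnmt3l at -0.78 (-0.56 without the extreme lines). Hells, a chromatin remodeller needed for methylation, ran from 2.50 to 3.11 and correlated with Dnmt3l at 0.87 (0.72 without the extreme lines). Prdm14, which represses de novo methyltransferase genes in naive cells, ran from 2.38 in Nanog-GFP OSKM#2 to 3.99 in Oct4-GFP SNEL#1, and its correlation with Dnmt3l of -0.60 was -0.04 without the extreme lines. Setdb1, the histone methyltransferase recruited by Trim28, and the insulator protein gene Ctcf each correlated with Dnmt3b at 0.91, and Uhrf2, a relative of Uhrf1, at -0.89. Without BC_2 OSKM and KH2_OSKM these were 0.77, 0.84 and -0.74. Usp7 (5.41 to 6.26), Tdg (-0.24 to 0.52), Mbd3 (5.54 to 5.99) and Zfp445 (0.56 to 1.63) varied by 1.07 or less. They too correlated with Dnmt3b, at 0.80, 0.74, 0.77 and 0.70 in that order. Hells did so at 0.62, Prdm14 at -0.59 and Dppa3 at -0.36. The share of all genes that correlate with Dnmt3b this strongly was not computed, so these values do not mark the named genes out.

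Of 27160 other genes, those most like Dnmt3l over the 10 lines were ENSMUST00000111939 (Pearson correlation 0.93), Supv3l1 (0.921), ENSMUST00000099328 (0.915), a noncoding probe on chromosome 14 (0.911) and Acads (0.907). All of these were highest in Nanog-GFP OSKM#2, as was Dnmt3l. The chromosome 14 probe was above background on 11 arrays, and Acads ran only from 1.77 to 2.07. The most opposite were Rps6kl1 (-0.946), Gm22 (-0.928), Mobp (-0.916), Sik1 (-0.913) and A830082N09Rik (-0.909). Both lists are the extremes of 27160 correlations over 10 lines, given as a description with no test. Of the other 9 genes of the group, Uhrf1 stood closest, at 0.40.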

How the data were processed

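Total RNA of 10 lines was hybridized to 20 arrays on 3 slides. The authors deposited scanner files with the intensity of each spot, made with Feature Extraction 10.1.1.1 per the file headers, and a table of log2 values, for which the submitters' processing notes name limma. How the authors normalized that table is not given in the sources used here; its column medians run from 6.2663 to 6.2801.

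From the deposited intensity, log2 processed signal minus the 75th percentile of the array was computed. Outlier spots were dropped (198 probes), probes had to be well above background on at least 4 arrays, and a gene took its brightest probe. Between 48.9% and 77.2% of probes per array were above background. Precision is limited by how many lines each group holds. The labels do not say that the 2 arrays of a line are separate cultures, so the line was the replicate. Limma's p-values measure the spread between lines within a fitted group. The fit by grade gives poor, good and high lines a mean each. For good and high against poor and for iPSC against ESC, its error therefore leaves out the gap between the joined grades. Limma 3.58.1 (R 4.3.3) fitted all 10 lines, by grade and by factors, with Benjamini-Hochberg adjustment over 27161 genes. The test was checked on simulated data. The genes, lists and comparisons were chosen with earlier results of these data known. The rule named the 10 genes, 10 genes of the list of 43, and the 5 genes most and least like Dnmt3l. Other names, such as Thy1, were chosen after their values were seen. Alternatives were other scalings, filters, probes, blocks and left-out lines. The direction of a matched difference was also computed under 4 other scalings.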

Additional observations from a re-analysis of the deposited data

Results flagged for a closer look

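Among the OSKM lines, the good and high lines together, and all 7 iPSC lines, no line was marked as far from the others. This was over 30 groups and genes tested (0 found). The rule takes the gap between an end line and the next as a share of the range. It needs a large share in groups this small, so it can miss a distant line. Nanog-GFP OSKM#2, at 6.37 in Dnmt3l with the next OSKM line at 5.23 and the lowest at 4.72, was not marked. The ESC, poor and SNEL lines were not tested as groups. The following differences from the ESC line of the same origin, on the log2 scale, ran in opposite directions between origins. Apart from the SNEL lines of Nanog-GFP origin, each origin has at most 1 line of a kind, with 2 arrays. The difference between origins was therefore not tested. They are marked wherever every array difference of a line had the same sign, however small, and several are no larger than the gap between arrays.

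Against the ESC lines, the OSKM lines differed in Dnmt3b by 2.34 (Nanog-GFP), 0.69 (Oct4-GFP) and -2.75 (KH2), and in Trim28 by 0.41, 0.30 and -0.68 in the same order. Tet2 differed by -0.42, 0.04 and -0.64. Tet1 differed by 0.28 in Nanog-GFP and -0.58 in KH2, and Uhrf1 by 0.11 in Nanog-GFP and -0.18 in Oct4-GFP.

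The SNEL lines differed from the ESC lines in Dnmt3l by 0.29 (Nanog-GFP SNEL#2), 1.81 (Nanog-GFP SNEL#3) and -1.19 (Oct4-GFP SNEL#1). In the same order Dnmt3b gave 1.15, 1.92 and -1.22, Trim28 0.43, 0.71 and -0.37, Zfp57 0.53, 0.77 and -0.37, Uhrf1 0.17, 0.37 and -0.35, and Dnmt3a -1.02, -0.71 and 0.77. Dnmt1 differed by 0.25 in Nanog-GFP SNEL#2 and -0.24 in Oct4-GFP SNEL#1.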

How the results depend on the processing

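Dnmt3l kept its direction in every alternative run for 5 comparisons: -1.67 to -0.84 for good and high against poor lines, -2.16 to -0.22 for SNEL against OSKM, 1.20 to 2.02 for poor, 0.96 to 1.48 for good and -0.90 to -0.26 for high against ESC lines. iPSC against ESC lines ran from -0.79 to 1.24 and SNEL against ESC from -0.79 to 0.50; -0.79 is the value of both within slide 3, which holds Oct4-GFP SNEL#1 as its iPSC line. Many of these alternatives could not change the direction. Dnmt3l has 1 probe, above background on all 20 arrays, so filters and probe means left its differences unmoved. So did only the lines compared, line as random block, the replicate block and left-out lines outside a comparison. In poor and good against ESC lines the groups did not overlap, so no left-out line could reverse them. All 5 poor and good lines stayed above all ESC lines under the 4 other scalings. Dnmt3l passed the threshold once, for poor against ESC lines on 20 arrays with line as random block (1.66, adjusted p = 0.0457, limma, 1 of the 10 genes called). That fit uses a single correlation within lines for all genes, so the second array of a line counts in part as a replicate. Adjusted p-values of the poor minus ESC difference ran from 0.0457 to 0.65 over the alternatives. With slide as a block it was 1.58 (adjusted p = 0.177, limma), and with the origin as a block, an alternative chosen after seeing the data, 1.66 (adjusted p = 0.494, limma). With the replicate block it was 1.66 (adjusted p = 0.063, limma), and SNEL against OSKM -1.58 (adjusted p = 0.0927, limma). The numbers are not known to pair samples: array differences of the same number correlated at a median of 0.17 over 45 pairs of lines, with 29 pairs over 0.1. The replicate block called 5, 47, 19, 25, 5 and 2 genes (good and high against poor, SNEL against OSKM, iPSC, poor, good and SNEL against ESC). The line as random block called 6, 87, 22, 42, 9 and 3 in that order and 8 for high against ESC lines. Slide as a block called 4, 11, 4, 16 and 4 in the first 5. The slide and replicate fits also use the 20 arrays with line as random block, so they too count second arrays in part as replicates. With line as random block, the standard error of Dnmt3l was 0.31 beside 0.44 over line means for poor against ESC lines. For SNEL against OSKM it was 0.38 beside 0.53, and both differences stayed the same. In SNEL against OSKM, quantile normalization called 7 genes, 1 gene was called with scaling over probes detected on all arrays, with no filter and with the strict filter, and 0 with probe means, only the lines compared, or grade and factors in one fit. Only the lines compared gave 2 genes for high and 3 for SNEL against ESC lines, and normexp 2 for SNEL against ESC. The cause of these changes was not tested.

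Of 1500 fitted values of the 10 genes under alternatives, 138 changed sign, and 133 of those were smaller than their standard error both before and after. The 1500 include alternatives that cannot move a difference, such as a left-out line outside the comparison. Of 170 untested values within a slide, 54 had another sign than the value over all lines. Under normexp the changed values were Dnmt1 -0.02 and Uhrf1 -0.01 (good and high against poor), Dnmt1 0 (iPSC against ESC), Uhrf1 0.04 (poor against ESC), and Dnmt1 -0.03 and Dnmt3l -0.06 (SNEL against ESC). Quantile normalization gave Dnmt1 -0.01 and Uhrf1 -0.04 (good and high against poor), Trim28 0.01 (iPSC against ESC), Uhrf1 0.06 (poor against ESC) and Dnmt1 0.01 (high against ESC). Scaling over detected probes gave Dnmt1 0 (good and high against poor), Dnmt3a -0.02 (SNEL against OSKM), Uhrf1 0.04 (poor against ESC) and Dnmt1 0.02 (high against ESC). The authors' value table gave Dnmt1 0 (good and high against poor), Trim28 0.02 (iPSC against ESC), Uhrf1 0.12 (poor against ESC), Trim28 0.01 (good against ESC), Zfp57 0.01 (high against ESC), and Dnmt3l 0 and Uhrf1 0.06 (SNEL against ESC). Probe means gave Uhrf1 0.06 and Tet2 -0.01 (SNEL against OSKM), Zfp57 -0.02 (iPSC against ESC), Tet3 0.30 (poor against ESC), Zfp57 -0.05 (good against ESC), and Dnmt3b 0.05 and Uhrf1 0.04 (SNEL against ESC). Slide as a block gave Dnmt1 0.02 (SNEL against OSKM), Dnmt1 -0.08 and Uhrf1 -0.04 (iPSC against ESC), Dnmt1 -0.10, Tet3 0.06 and Trim28 -0.02 (poor against ESC), Dnmt1 -0.04 (good against ESC), and Dnmt1 -0.07 and Dnmt3l -0.06 (SNEL against ESC). Grade and factors in one fit gave Dnmt1 0.04, Dnmt3a -0.16, Uhrf1 0.10 and Tet2 -0.23 (SNEL against OSKM), and Dnmt1 -0.03, Uhrf1 -0.06, Tet1 -0.53 and Tet3 0.20 (good and high against poor).

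Leaving out 1 line at a time gave these ranges where a sign or a count changed. Good and high against poor: Dnmt1 -0.05 to 0.11, Dnmt3a -0.22 to 0.30, Tet3 -0.21 to 0, Trim28 -0.28 to 0.07, Uhrf1 -0.05 to 0.10, and 0 to 1 genes called. SNEL against OSKM: Dnmt1 -0.11 to 0.12, Dnmt3a -0.22 to 0.17, Dnmt3b -0.12 to 1.1, Tet2 -0.02 to 0.11, Trim28 -0.02 to 0.32, Uhrf1 -0.15 to 0.08, Zfp57 -0.13 to 0.26, and 0 to 338 genes called, the highest without Oct4-GFP SNEL#1 and 10 without Oct4-GFP OSKM#2. iPSC against ESC: Dnmt1 -0.01 to 0.07, Dnmt3a -0.45 to 0.11, Dnmt3b -0.78 to 0.18, Tet1 -0.03 to 0.22, Trim28 -0.22 to 0.12, Uhrf1 -0.08 to 0.05, Zfp57 -0.09 to 0.23, and 0 to 5 genes. Poor against ESC: Dnmt1 -0.04 to 0.08, Dnmt3a -0.50 to 0.11, Dnmt3b -0.55 to 1.04, Tet1 -0.35 to 0.10, Trim28 -0.16 to 0.20, Uhrf1 -0.09 to 0.04, and 0 to 2 genes. Good against ESC: Dnmt3a -0.38 to 0.18, Dnmt3b -2.28 to 0.95, Tet1 -0.20 to 1.02, Trim28 -0.44 to 0.36, Zfp57 -0.28 to 0.44, and 0 to 6 genes. High against ESC: Dnmt1 -0.27 to 0.20, Dnmt3a -0.48 to 0.19, Dnmt3b -1.21 to 0.18, Tet1 -0.31 to 0.61, Trim28 -0.33 to 0.08, Uhrf1 -0.26 to 0, Zfp57 -0.35 to 0.21, and 0 to 1 genes. SNEL against ESC: Dnmt1 -0.08 to 0.16, Dnmt3a -0.45 to 0.12, Dnmt3b -0.51 to 0.57, Dnmt3l -0.57 to 0.41, Trim28 -0.14 to 0.22, Uhrf1 -0.13 to 0.10, Zfp57 -0.07 to 0.32, and 0 to 47 genes, the highest without Oct4-GFP SNEL#1. A group left with 1 line is assumed to vary like the others.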
